A study of Mus musculus with 6 samples.

Results

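The 39 genes described here are interferon-stimulated genes and components of interferon signalling, taken from a list of gene symbols and found by name in a table of 28539 loci, of which 23889 carry a symbol. Each of the 39 had exactly 1 locus. RNA-seq of polyadenylated transcripts was made from whole corneas of female C57BL/6J mice, 6 to 8 weeks old, in 3 groups of 2 samples. Day 0 corneas were untreated. The alkali-burned corneas, injured by a caustic solution on the eye surface, were collected on day 5 or on day 15, a stage that the labels call regression. Whether the 2 samples of each group are from different animals, and how many corneas went into a sample, is not in the labels. The values are the authors' FPKM, which is scaled to transcript length and library size, and each group has a single value pooled over its samples. A range in brackets is the authors' interval for that group, and no test across samples was possible.

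Interferons are secreted proteins that cells release on sensing viral nucleic acid or tissue damage, or, for interferon gamma, on activation of lymphocytes. Type I interferons bind the receptor chains Ifnar1 and Ifnar2 and act through a complex with Stat2 and Irf9 that binds the interferon-stimulated response element (ISRE). Interferon gamma binds Ifngr1 and Ifngr2 and acts on genes that carry the gamma-activated site (GAS). The genes they switch on encode sensors of foreign RNA and DNA, inhibitors of virus entry and replication, and feedback regulators, and barrier epithelia such as that of the cornea keep some of them expressed at rest.

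Of the 39 genes, 3 were higher after the burn by the rule used here, Ifitm3, Isg20 and Zbp1, and 36 were not set apart from the uninjured cornea. Pairs of groups were compared in 3 ways. The day 5 comparison is day 5 over day 0, and the day 15 comparison is day 15 over day 0. The late comparison is day 15 over day 5. Any 2 of these comparisons share the samples of 1 group. Ifitm3 and Isg20 were the 2 members that were higher and apart in the day 5 comparison. Isg20, Ifitm3 and Zbp1 were the 3 that were higher and apart in the day 15 comparison. No member was lower and apart in any of the 3 comparisons, and none was apart in the late one. Apart means an FPKM of 1 or more in the higher of the groups, a log2 ratio of (FPKM + 1) of 1 or more in size, and intervals of the 2 groups that do not overlap. All log2 ratios below are on that scale, which understates the change of low genes, and folds are ratios of FPKM. Over every locus with an FPKM of 1 or more in either group, 3.42% were higher and apart and 2.5% lower in the day 5 comparison. The shares were 2.91% and 1.81% in the day 15 comparison, and 0.395% and 0.388% in the late one. Of the 38 members with an FPKM of 1 or more, 5.26%, 7.89% and 0% were higher and apart in the 3 comparisons. A single gene makes up 2.63% of these members, so their shares stood within 1 or 2 genes of the background, and with 1 pooled value per group the difference could not be tested.

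Leaving the intervals out of the rule, the day 5 comparison held 3 higher members (Zbp1, Isg20 and Ifitm3) and 1 lower (Irf1), where 10.8% of all loci were higher and 11.1% lower. The day 15 comparison held 5 higher (Ifitm1 and Gbp3 besides the same 3) and none lower, beside 8.36% and 9.43%. The late comparison held 1 higher (Rtp4) and none lower, beside 2.62% and 3.35%. Most members therefore differed by less than 2-fold on this scale in each comparison, whatever the width of their intervals.

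FPKM reached 1 in at least 1 group for 38 of the 39 members, Mx2 being the exception. Isg20 and Mx1 reached it through the injured groups alone. The deposited intervals were wide. Over these 38 members the median half-width was 54.0%, 55.2% and 52.0% of the value itself on days 0, 5 and 15. With such intervals a member had to differ by a median of 3.48-fold to be apart in the day 5 comparison, with a lowest requirement of 2.47-fold, so that a difference of 2-fold could not have been called for any member. The median over the members of the log2 ratio was -0.11 in the day 5 comparison, 0.41 in the day 15 comparison and 0.36 in the late one, beside -0.08, -0.08 and -0.01 over all loci past the same filter. Among loci with FPKM of at least 5 in both groups the median log2 ratio was -0.11 in the day 5 comparison and -0.08 in the day 15 comparison, and the values given here are not corrected for that shift. In whole tissue, a change in the number of cells of a type and a change of RNA per cell cannot be told apart.

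**Figure D1:**
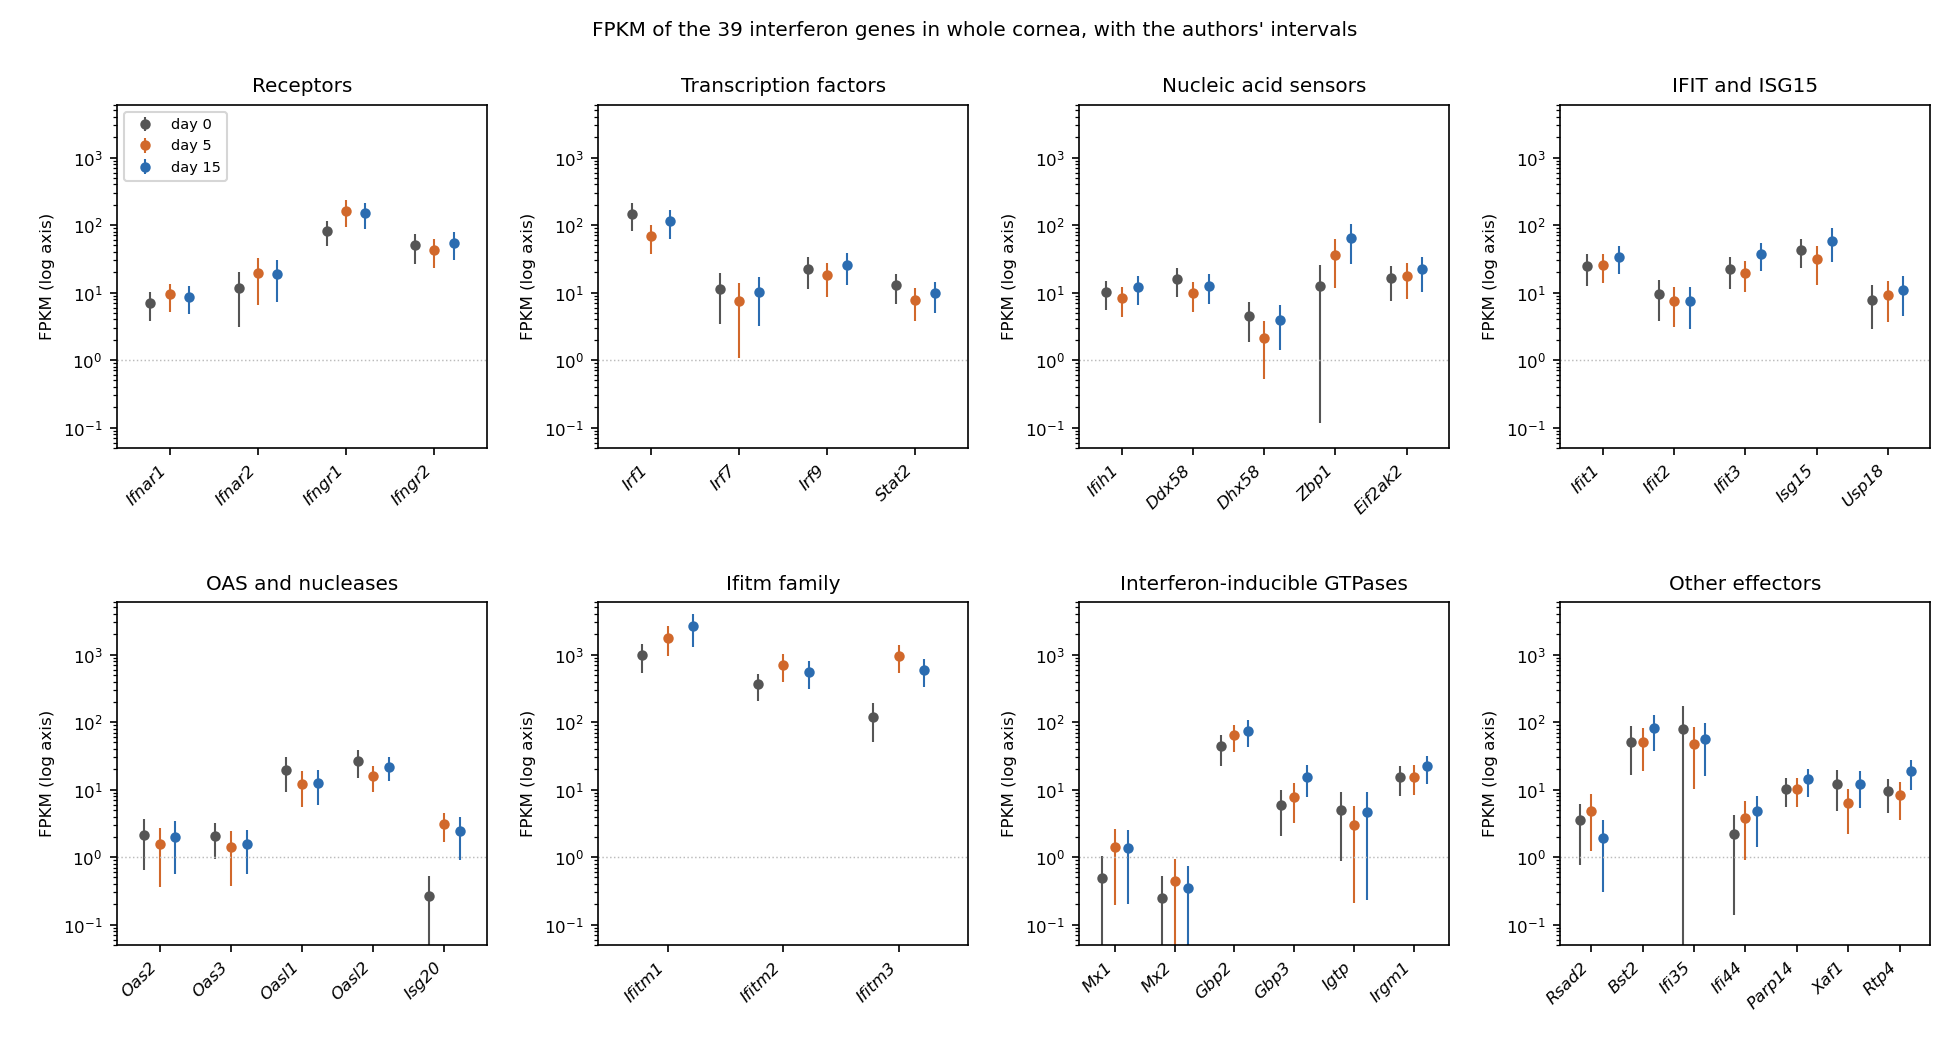
FPKM (log axis) of all 39 members at days 0, 5 and 15, grouped by role, with points for the pooled value and bars for the authors' interval (bars that reach 0 run off the lower edge). The 3 Ifitm genes stand highest at days 5 and 15, and in most panels the bars of the 3 days overlap.

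The Ifitm genes encode small interferon-induced transmembrane proteins that block the fusion of enveloped viruses with endosomal membranes. All 3 lie within 55.9 kb of chromosome 7 on mm10. Ifitm3, the member of this family best known for restricting influenza virus (chromosome 7, 141009590 to 141010744, minus strand), had an FPKM of 121 (51.2 to 191) at day 0, 968 (540.2 to 1395) at day 5 and 592 (331 to 852) at day 15. Neither injured interval reached the day 0 interval. The ratio was 8.00-fold in the day 5 comparison (log2 ratio 2.99) and 4.89-fold in the day 15 comparison (2.28), and the log2 ratio in the late comparison was -0.71 with overlapping intervals.

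Its neighbours were more abundant at rest and differed less. Ifitm1 (chromosome 7, 140967429 to 140969827, plus strand) had an FPKM of 986 (544 to 1429) at day 0, 1778 (941 to 2615) at day 5 and 2674 (1288 to 4059) at day 15. Ifitm2 (chromosome 7, 140954839 to 140955961, minus strand) stood at 364 (203 to 525), 709.8 (389.9 to 1030) and 559 (315 to 803) at days 0, 5 and 15. Both had their lowest value at day 0, and neither was apart in any comparison, although the log2 ratio of Ifitm1 in the day 15 comparison was 1.44. Of the summed FPKM of the 3 genes, Ifitm3 made up 8.23%, 28% and 15.5% on days 0, 5 and 15. The order of these genes in uninjured cornea was Ifitm1, Ifitm2, Ifitm3, with no overlap between neighbouring intervals, and at day 5 Ifitm3 exceeded Ifitm2 with overlapping intervals. Their sum was 1471, 3455 and 3824 on days 0, 5 and 15, or 64.8%, 82.0% and 79.2% of the summed FPKM of all 39 members. At days 5 and 15 no other member reached the lowest of the 3, the highest being Ifngr1 at 163 and 149, whereas at day 0 Irf1 at 147 stood above Ifitm3 with overlapping intervals.

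Reads of these genes can be shared with near copies. In the GENCODE M21 transcripts, 10.02% of the 50-base words of Ifitm3, 5.02% of those of Ifitm1 and 48.5% of those of Ifitm2 also occur in a transcript of another gene, which for Ifitm2 is mostly Gm45717 (36.1% of its words). How the counting split such reads is not given in the sources used here. Other family genes, looked up after these values were seen, were far lower. Ifitm6 stood at 0.124 at day 0, 4.51 (0 to 10.1) at day 5 and 1.72 (0 to 4.07) at day 15, Ifitm10 between 10.3 and 14.1, Ifitm5 below 1, and Ifitm7 was listed at 0 throughout, and none of these was apart.

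The promoter windows of Ifitm3 and Ifitm1 are printed because the first was apart after the burn and the second, its neighbour, was not. Ifitm1 was still 2.71-fold higher in the day 15 comparison, where 3.01-fold was needed for it to be apart. Each runs 5' to 3' from 250 bases before the transcription start to 49 after it, with the start counted as 0, from RefSeq on GRCm38.p6. Capitals mark an ISRE core, GAAANNGAAA (a pair of GAAA copies set 2 bases apart), or a GAS core, TTCNNNGAA, each searched on both strands. The Ifitm3 window (chr7:141010695-141010994, minus strand) holds 2 ISRE cores that begin 2 and 19 bases after the start, and 1 GAS core that begins at 13 and overlaps the second of them. The Ifitm1 window (chr7:140967826-140968125, plus strand) holds neither core. It begins inside the Ifitm1 locus, which starts at 140967429, so the bases around and before that locus start were not searched.
Ifitm3: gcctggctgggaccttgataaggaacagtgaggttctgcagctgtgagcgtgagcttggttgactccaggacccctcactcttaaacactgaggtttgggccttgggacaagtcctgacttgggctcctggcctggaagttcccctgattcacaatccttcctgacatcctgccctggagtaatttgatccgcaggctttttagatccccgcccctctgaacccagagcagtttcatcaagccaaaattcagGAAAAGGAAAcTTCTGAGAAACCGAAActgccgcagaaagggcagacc
Ifitm1: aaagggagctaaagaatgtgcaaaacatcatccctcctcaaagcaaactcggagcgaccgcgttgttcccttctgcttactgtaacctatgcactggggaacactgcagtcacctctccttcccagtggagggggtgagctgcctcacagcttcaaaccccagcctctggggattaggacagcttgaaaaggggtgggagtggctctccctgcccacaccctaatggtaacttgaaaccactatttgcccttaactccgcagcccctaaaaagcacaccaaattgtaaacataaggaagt
The Ifitm2 window (chr7:140955912-140956211, minus strand), not shown, holds 1 ISRE core, 46 bases before the start, with the same letters as the first core of Ifitm3.

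Isg20 encodes an exonuclease that degrades single-stranded RNA (chromosome 7, 78913424 to 78920396, plus strand). Its FPKM was 0.270 (0.0187 to 0.521) at day 0, 3.06 (1.67 to 4.45) at day 5 and 2.45 (0.909 to 3.99) at day 15. Both injured intervals lay above that of day 0, at a low level. The ratio was 11.3-fold in the day 5 comparison and 9.07-fold in the day 15 comparison, imprecise because the day 0 value is near 0, and the log2 ratios were 1.68 and 1.44. Isg20 shared none of its 50-base words with another gene, and its locus has the span of the annotated gene. The related exonuclease genes Isg20l2, at 5.84 at day 5 and 3.20 at day 0, and Aen, at 4.13 and 2.92, also looked up afterwards, were not apart. RefSeq gives Isg20 3 start sites. The window of the most upstream one (chr7:78913174-78913473, plus strand) holds 1 GAS core, 73 bases before the start, and is shown as that of the other member apart at both times. The other 2 windows hold neither core.
Isg20: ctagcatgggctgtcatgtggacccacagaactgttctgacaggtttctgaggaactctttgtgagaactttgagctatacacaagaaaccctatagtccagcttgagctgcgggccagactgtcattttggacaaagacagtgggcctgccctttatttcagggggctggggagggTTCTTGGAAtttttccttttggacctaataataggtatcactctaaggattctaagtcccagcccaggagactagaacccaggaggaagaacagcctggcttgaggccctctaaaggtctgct

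Zbp1 encodes a sensor of Z-form nucleic acid that can set off necroptosis and inflammation (chromosome 2, 173192374 to 173218923, minus strand). It stood at 12.7 (0.117 to 25.2) at day 0, 36.4 (11.5 to 61.3) at day 5 and 64.4 (26.6 to 102) at day 15. The values were in the order of the days, and the day 15 interval cleared that of day 0 only narrowly. The ratio was 5.09-fold in the day 15 comparison (log2 ratio 2.26) and 2.88-fold in the day 5 comparison (1.45), and only the first was apart. The locus spans 2.16 times the annotated gene, so that fragments from outside the gene may be counted in it.

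**Figure D2:**
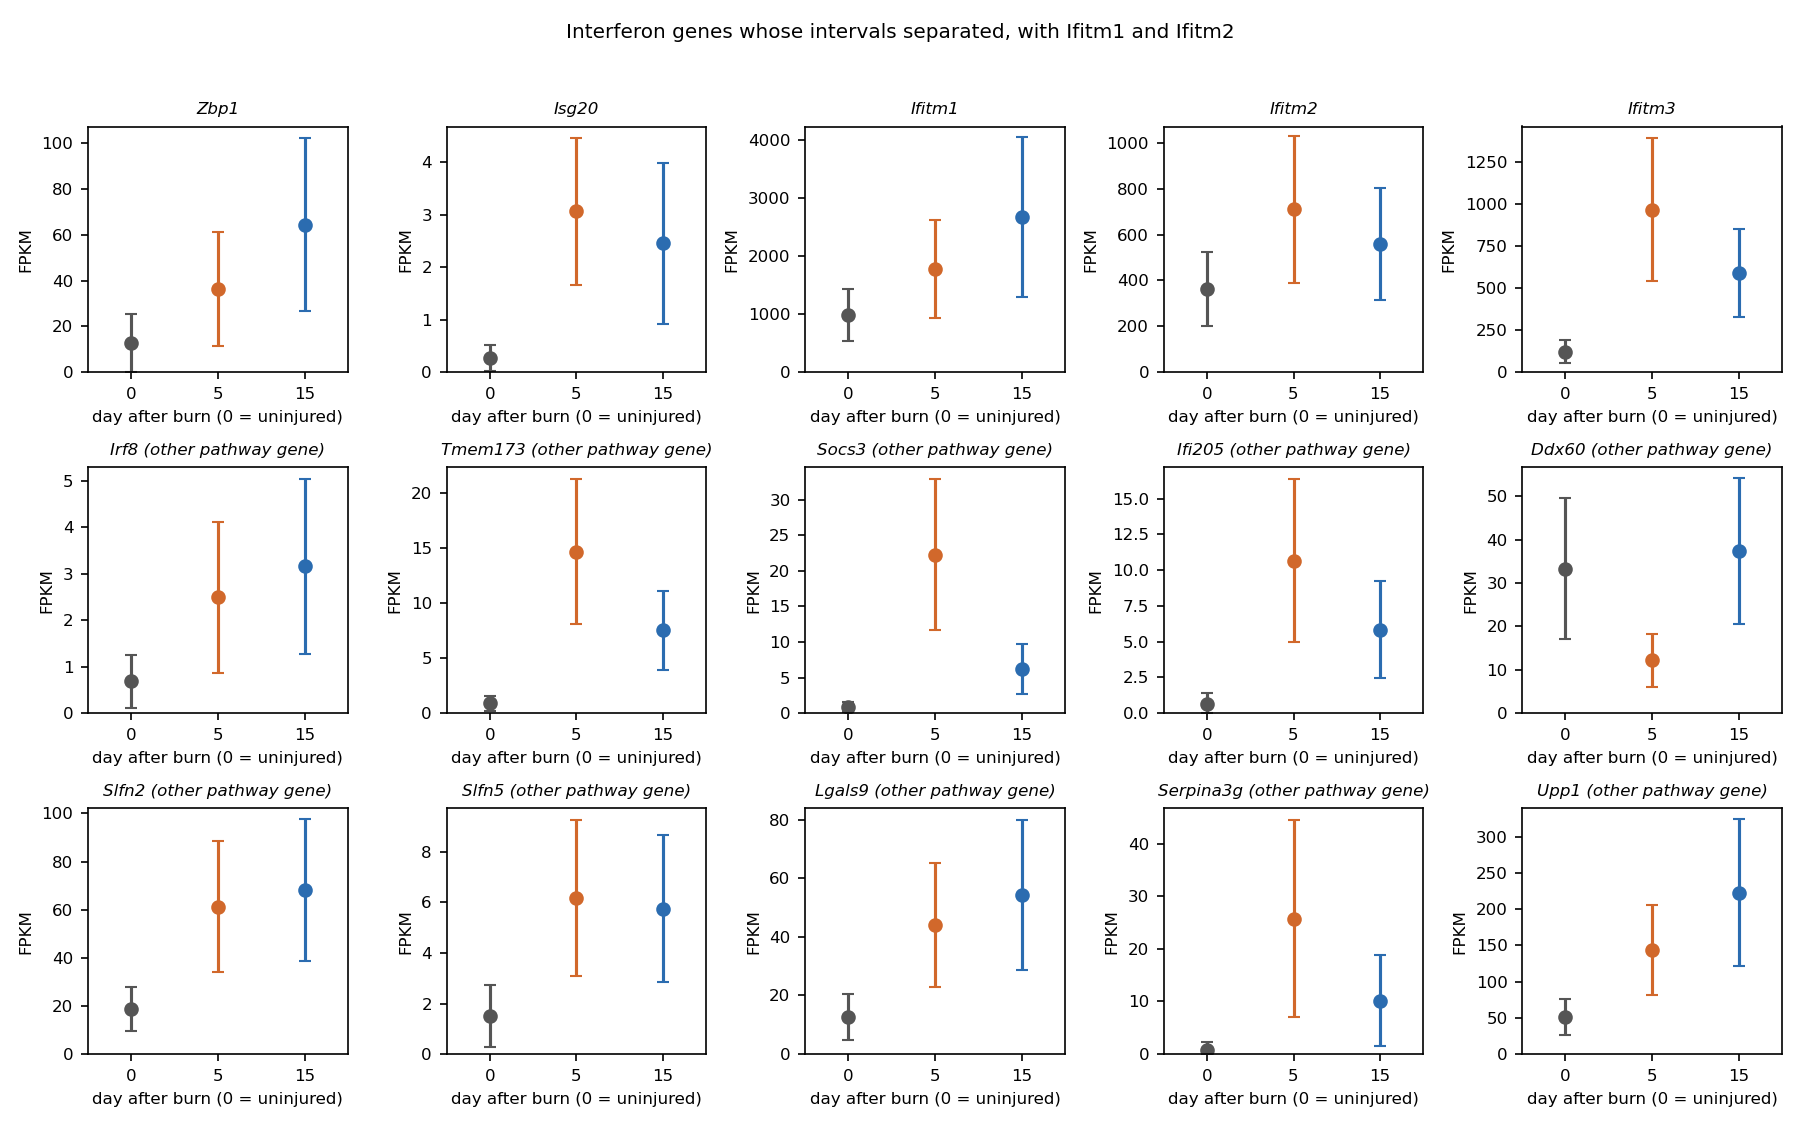
FPKM (linear axis from 0) at days 0, 5 and 15 of the 3 members that were apart in any comparison, of Ifitm1 and Ifitm2, and of the 10 other pathway genes that were apart, with the authors' interval as bars. Ifitm3 is at 121, 968 and 592, and its day 0 bar lies below both others.

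None of the 4 receptor chains was apart. Ifnar1, one chain of the type I receptor, had an FPKM of 7.02 (3.81 to 10.2) at day 0, 9.37 (5.24 to 13.5) at day 5 and 8.73 (4.88 to 12.6) at day 15. Ifnar2, the other chain, had 11.6 (3.09 to 20.2), 19.3 (6.54 to 32.0) and 18.7 (7.20 to 30.2) at days 0, 5 and 15. Both were lowest at day 0 with intervals that overlapped throughout. Ifngr1, the ligand-binding chain of the interferon gamma receptor, had 80.9 (48.5 to 113), 163 (92.3 to 233) and 149 (86.0 to 212), 2.01-fold higher at day 5 than at day 0. Ifngr2, its partner chain, had 50.5 (26.9 to 74.1), 42.2 (22.7 to 61.6) and 55.0 (29.9 to 80.1). In every group both chains of the interferon gamma receptor had a higher FPKM than both chains of the type I receptor. The intervals of Ifngr2 and Ifnar2 overlapped at days 5 and 15.

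All 4 transcription factors of the list had day 5 values below those of day 0, and none was apart. Irf1, a factor induced by interferon gamma, had an FPKM of 147 (81.0 to 213) at day 0, 69.2 (37.3 to 101) at day 5 and 116 (62.4 to 169) at day 15. The log2 ratio of Irf1 in the day 5 comparison, -1.07, was the only one of a member below -1 there. Irf7, the factor that amplifies type I interferon production, had 11.3 (3.44 to 19.2), 7.54 (1.06 to 14) and 10.1 (3.16 to 17.1) at days 0, 5 and 15. Its locus spans 10.01 times the annotated gene and its exons overlap those of Phrf1 on the other strand, so its value is uncertain. Stat2 had 12.8 (6.68 to 18.9), 7.64 (3.79 to 11.5) and 9.71 (4.96 to 14.5). Irf9, its DNA-binding partner, had 22.7 (11.3 to 34), 17.9 (8.59 to 27.2) and 25.7 (13.1 to 38.4), on a locus merged with Rnf31. At day 15 all 4 stood above their day 5 value, with a median log2 ratio of 0.44.

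Apart from Zbp1, no sensor of foreign nucleic acid was apart. Ddx58 encodes RIG-I, a sensor of viral RNA ends, and had an FPKM of 15.7 (8.60 to 22.8) at day 0, 9.73 (5.13 to 14.3) at day 5 and 12.7 (6.88 to 18.5) at day 15. Ifih1 encodes MDA5, a sensor of long double-stranded RNA, and had 10.1 (5.52 to 14.7), 8.20 (4.31 to 12.1) and 12 (6.51 to 17.5). Dhx58, which encodes LGP2, a regulator of both, had 4.56 (1.87 to 7.25), 2.13 (0.530 to 3.73) and 3.95 (1.39 to 6.51). All 3 had their lowest value at day 5. Eif2ak2, the kinase PKR that halts translation on binding double-stranded RNA, had 16.2 (7.51 to 25.0), 17.9 (8.02 to 27.7) and 22 (10.02 to 34), on a locus merged with Gm6548 and Sult6b1.

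Isg15, Usp18, Ifit1, Ifit2 and Ifit3, often read as markers of a type I interferon response, were expressed in the uninjured cornea. None of them was apart afterwards. Mx1 and Mx2, given below, were under an FPKM of 1 at day 0. Isg15, a ubiquitin-like modifier, had an FPKM of 42.9 (23.0 to 62.9) at day 0, 31.2 (12.9 to 49.6) at day 5 and 58.4 (27.9 to 88.9) at day 15. Usp18, which removes Isg15 from proteins and damps the type I receptor, had 7.83 (2.92 to 12.7), 9.24 (3.62 to 14.9) and 10.9 (4.56 to 17.3). Isg15 was lowest at day 5 and Usp18 at day 0, and both were highest at day 15. The Ifit genes encode proteins that bind foreign RNA and block its translation. Ifit1 had 25.0 (12.3 to 37.7), 25.6 (13.9 to 37.3) and 33.6 (18.8 to 48.4) at days 0, 5 and 15. Ifit3 had 22.5 (11.3 to 33.8), 19.6 (10.03 to 29.2) and 37.7 (20.8 to 54.7), and shared 51.2% of its 50-base words with Ifit3b. Ifit2 had 9.59 (3.75 to 15.4), 7.49 (3.08 to 11.9) and 7.5 (2.83 to 12.2), and was the 1 gene of these 5 whose day 15 value stood below that of day 0. The fold between the day 5 and day 0 values of Ifit1 was 1.02, and the ratio of the interval bounds ran between 0.369 and 3.02.

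Isg15 is shown as a member with several ISRE cores that was not apart. Its window (chr4:156200769-156201068, minus strand) holds 3 ISRE cores that overlap in 1 run of 22 bases from 78 before the start.
Isg15: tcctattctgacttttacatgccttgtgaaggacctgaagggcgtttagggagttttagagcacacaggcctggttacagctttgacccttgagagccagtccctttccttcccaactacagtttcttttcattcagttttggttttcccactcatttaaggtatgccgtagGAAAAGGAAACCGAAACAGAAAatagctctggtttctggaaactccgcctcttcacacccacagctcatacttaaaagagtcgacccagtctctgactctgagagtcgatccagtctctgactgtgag
Of the 39 members, 31 matched a gene in the RefSeq promoter table. Dhx58, Zbp1, Usp18, Oas2, Mx1, Mx2, Parp14 and Rtp4 did not. An ISRE core was in a window of 16 of the 31 and a GAS core in 10, with 4 members holding both and 9 holding neither. Of all 27025 genes in that table, 3.99% held an ISRE core and 9.55% a GAS core. The 16 members with an ISRE core had a median log2 ratio of -0.01 in the day 5 comparison and the 15 without had -0.32, with 1 member apart in each. In the day 15 comparison the medians were 0.43 and 0.12, and in the late one 0.37 and 0.27. The day 5 ranges, -0.67 to 2.99 with a core and -1.07 to 1.68 without, overlapped widely, and the split was not tested. A match of letters is not shown to be a bound site, and its absence from a window says only that the letters are not in these 300 bases.

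**Figure D3:**
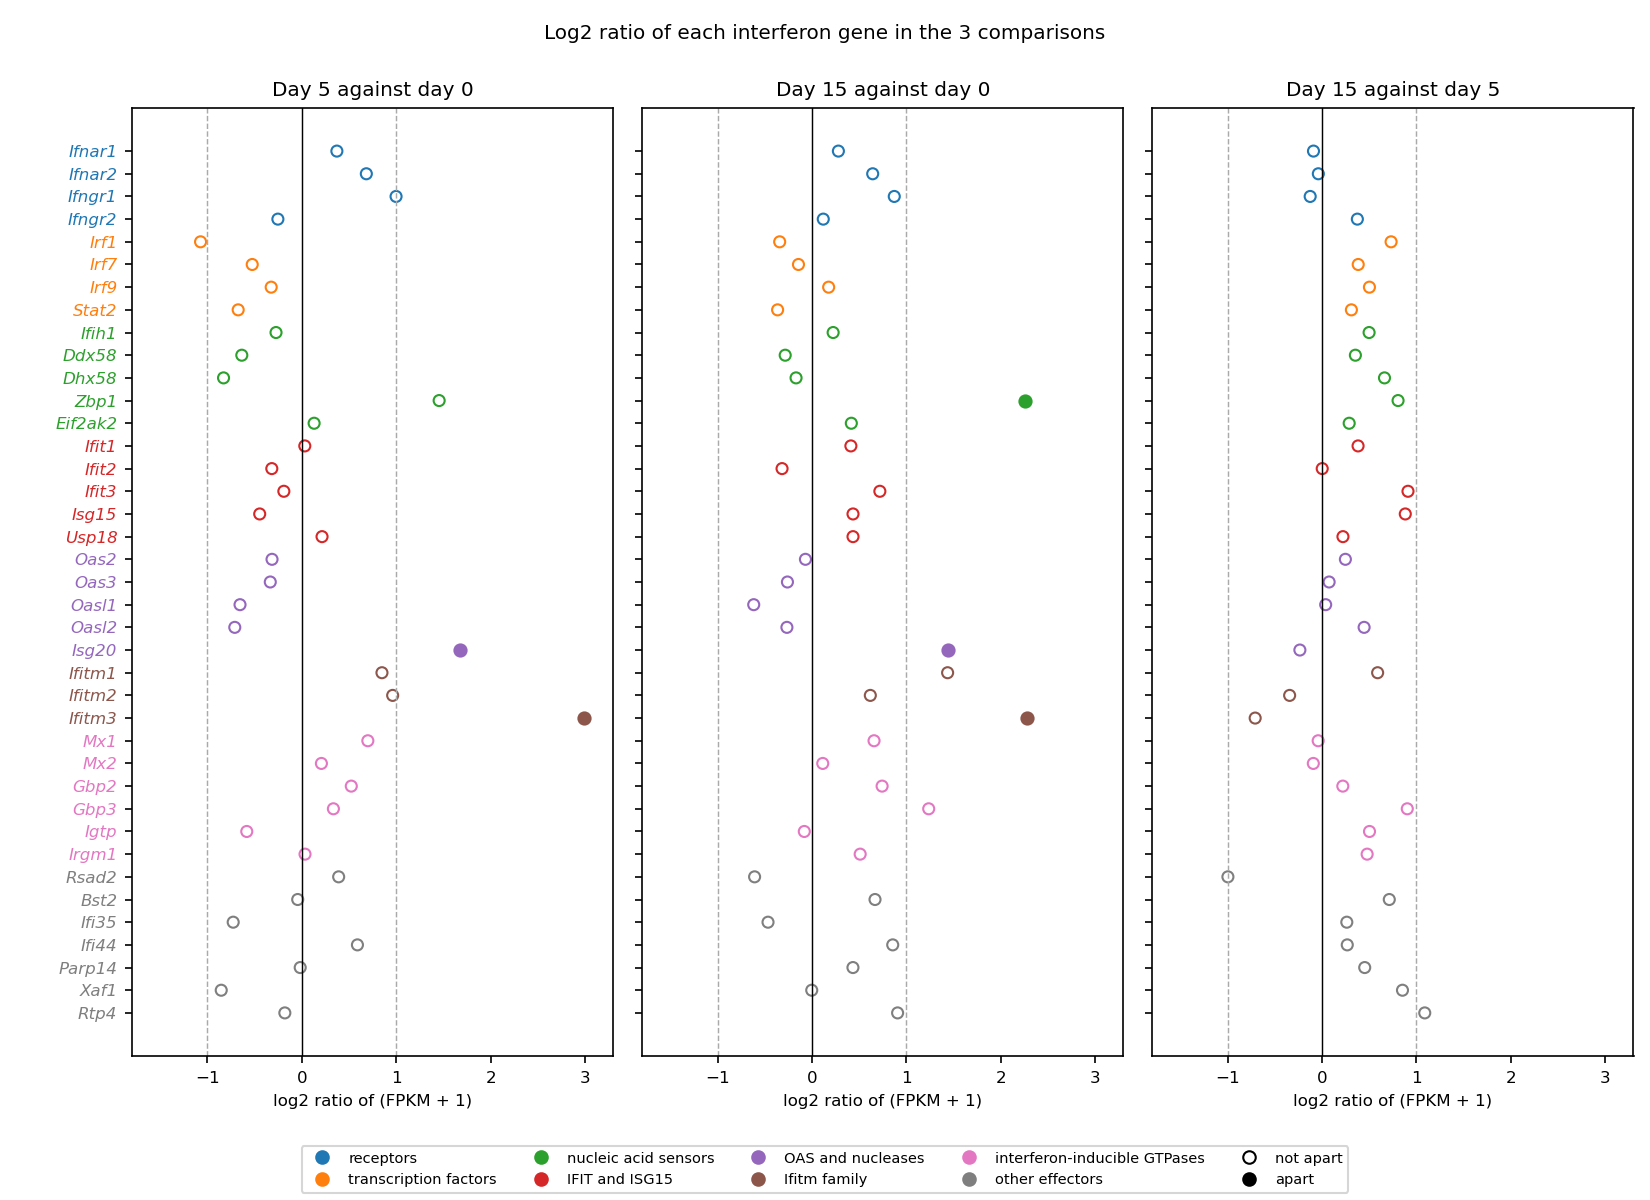
Log2 ratio of (FPKM + 1) of each member in the 3 comparisons, with filled points for loci that were apart, open points for the rest, colours for roles, and dashed lines at -1 and 1. In the right panel 30 of the 38 members with FPKM of at least 1 lie above 0, and no point is filled.

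Active members of the oligoadenylate synthetase family make the messenger that activates RNase L, which cleaves RNA. Oasl2 had an FPKM of 26.6 (14.8 to 38.5) at day 0, 15.9 (9.10 to 22.7) at day 5 and 22 (13.3 to 30.7) at day 15. Oasl1, which restrains Irf7 translation in mice, had 19.8 (9.09 to 30.6), 12.2 (5.48 to 19.0) and 12.6 (5.83 to 19.4). Both were higher at day 0 than afterwards, within overlapping intervals. Oas2 had 2.17 (0.645 to 3.69), 1.54 (0.365 to 2.72) and 2.02 (0.571 to 3.46) at days 0, 5 and 15, and Oas3 had 2.06 (0.926 to 3.20), 1.43 (0.374 to 2.48) and 1.56 (0.557 to 2.56). These 4 genes were lower in value than at day 0 at both later times, whereas Isg20, the nuclease grouped with them, was higher.

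Among the interferon-inducible GTPases none was apart. Gbp2, a guanylate-binding protein that attacks vacuoles of pathogens, had an FPKM of 43.9 (22.5 to 65.3) at day 0, 63.6 (36.0 to 91.2) at day 5 and 74.2 (42.2 to 106) at day 15. Gbp3, a relative, had 6.03 (2.06 to 10.0006), 7.86 (3.24 to 12.5) and 15.6 (7.82 to 23.3). Both had values in the order of the days, and Gbp3 at day 15 was 2.58-fold its day 0 value with intervals that overlapped. Irgm1, a regulator of the immunity-related GTPases, had 15.2 (8.06 to 22.4), 15.6 (8.29 to 22.9) and 22.1 (12.3 to 32.0). Igtp, of the same family, had 4.99 (0.893 to 9.09), 3.0 (0.207 to 5.79) and 4.66 (0.229 to 9.10), and shared 11.8% of its words with Irgm2. Mx1 had 0.494 (0 to 1.03), 1.43 (0.193 to 2.66) and 1.36 (0.203 to 2.51), and Mx2 had 0.244, 0.436 and 0.347. Mx proteins trap viral nucleocapsids, and both genes are known to be defective in many laboratory strains.

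The remaining 7 effectors were also not apart. Bst2 encodes tetherin, which holds budding virions at the cell surface, and had an FPKM of 51.6 (16.5 to 86.8) at day 0, 50.1 (18.9 to 81.2) at day 5 and 82.6 (37.6 to 128) at day 15. Rtp4, a transmembrane protein induced by type I interferon, had 9.55 (4.56 to 14.5), 8.31 (3.6 to 13) and 18.8 (9.80 to 27.8), and shared 11.6% of its words with Gm45338. Rtp4 was the 1 member with a log2 ratio of at least 1 in the late comparison, at 1.09. Rsad2 encodes viperin, an inhibitor of virus replication, and had 3.50 (0.770 to 6.23), 4.90 (1.22 to 8.57) and 1.95 (0.301 to 3.6), the 1 member that was highest at day 5 and lowest at day 15. Parp14, an ADP-ribosyltransferase, had 10.3 (5.62 to 14.9), 10.1 (5.56 to 14.7) and 14.2 (7.90 to 20.6). Ifi44 had 2.21 (0.141 to 4.27), 3.82 (0.898 to 6.75) and 4.80 (1.41 to 8.20). Xaf1, a promoter of apoptosis, had 12.2 (4.81 to 19.5), 6.28 (2.19 to 10.4) and 12.1 (5.42 to 18.9), with its lowest value at day 5. Ifi35 had 78.6 (0 to 171), 47.1 (10.2 to 83.9) and 56.7 (15.8 to 97.6), and the lower bound of 0 at day 0 leaves its level there unsettled. Besides Irf7, 6 members have exons that overlap a gene on the other strand, namely Irf1, Dhx58, Eif2ak2, Usp18, Oasl1 and Ifi35, and whether the counting used strand is not given in the sources used here.

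Read by day, the lowest value fell on day 0 for 17 of the 39 members, on day 5 for 21 and on day 15 for 1. The highest was the day 0 value for 13, the day 5 value for 9 and the day 15 value for 17. The 13 that were highest at day 0 and lowest at day 5 were Irf1, Irf7, Stat2, Ddx58, Dhx58, Ifit2, Oas2, Oas3, Oasl1, Oasl2, Igtp, Ifi35 and Xaf1. The 8 that were lowest at day 0 and highest at day 5 were Ifnar1, Ifnar2, Ifngr1, Isg20, Ifitm2, Ifitm3, Mx1 and Mx2. In the late comparison, 30 of 38 members (78.9%) had the higher value at day 15, beside 48.7% of all loci past the same filter, and the size was small, between -0.998 and 1.09 on the log2 scale. The injured value was the higher for 24 of 38 in the day 15 comparison (63.2%, beside 44.3%), and for 17 of 38 in the day 5 comparison (44.7%, beside 45.2%). These counts describe values within overlapping intervals for nearly every member, and genes of one pathway are not independent of each other. The late and day 5 comparisons use the same day 5 values, so a low day 5 value enters both counts.

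**Figure D4:**
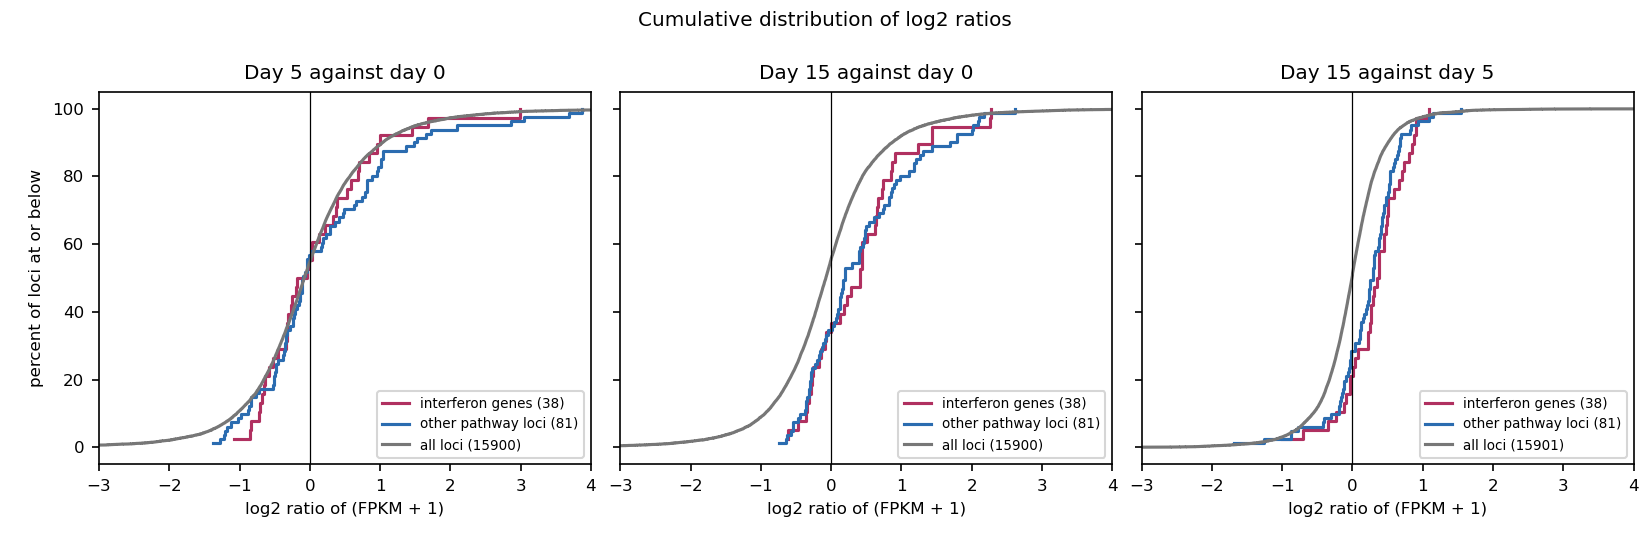
Percent of loci at or below each log2 ratio of (FPKM + 1), for the 38 members with FPKM of at least 1 in a group, 81 loci of other pathway genes and all loci past the same filter. In the day 5 comparison the members' line runs near that of all loci around the median. At or below -1 lay 1 of 38 members beside 1722 of 15900 loci, and at or above 1 lay 3 beside 1687. In both other panels the members' line lies to the right of that of all loci around 0, with medians of 0.41 and 0.36.

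No interferon gene itself reached an FPKM of 1. Of 21 ligand genes, 15 were listed at 0 in all groups. The highest value was that of Ifna13, an interferon alpha gene, with 0.633 (0 to 1.66) in uninjured cornea and a listed 0 at both later times. Ifnb1, which encodes interferon beta, had 0.0154 on day 0 and 0.0110 on day 5, and a listed 0 on day 15. Ifng, which encodes interferon gamma, had a listed 0 in uninjured cornea, then 0.0872 (0 to 0.266) on day 5 and 0.119 (0 to 0.441) on day 15. The depth of these libraries is unknown, so a listed 0 sets no upper limit.

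The signalling chain below the receptors was present throughout. The kinases Jak1 (35.7, 25.9 and 23.6 FPKM at days 0, 5 and 15), Jak2 (11.4, 13.1 and 11.8) and Tyk2 (3.11, 1.87 and 2.33) were not apart. Neither was Irf3, which switches on interferon beta, at 16.2, 12.5 and 12.2. Socs1, the main feedback inhibitor of interferon gamma signalling, stood at 2.41, 2.32 and 1.97. Socs3, better known as the feedback inhibitor of interleukin-6 type cytokines, was at 0.799 (0.0874 to 1.51), 22.3 (11.6 to 32.9) and 6.22 (2.73 to 9.71), higher and apart at both times against day 0 and lower and apart in the late comparison. Tmem173, which encodes the DNA-pathway adaptor STING, was at 0.887 (0.223 to 1.55), 14.7 (8.06 to 21.2) and 7.51 (3.90 to 11.1), 16.5-fold and 8.46-fold higher than at day 0 and apart at both times.

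In all, 114 other genes of the pathway on 112 loci were looked up, of which 81 loci reached an FPKM of 1. In the day 5 comparison, 8 of the 81 were higher and apart and none lower, beside 3.42% and 2.5% of all loci. Their median log2 ratio was -0.09, beside -0.08 over all loci past the same filter. In the day 15 comparison the counts were again 8 and 0, beside 2.91% and 1.81%, with a median of 0.20 beside -0.08. In the late comparison they were 1 and 1, beside 0.395% and 0.388%, with a median of 0.29 beside -0.01. With 1 pooled value per group these differences could not be tested. Of the genes known as induced by type I interferon, Ifi205 (0.601, 10.7 and 5.84 FPKM at days 0, 5 and 15), Slfn2 (18.9, 61.3 and 68.1), Slfn5 (1.5, 6.17 and 5.76) and Lgals9 (12.6, 43.9 and 54.4) were higher and apart at both times against day 0. Slfn2, Slfn5 and Lgals9 are known to be expressed in leukocytes, and Slfn5 lies on a locus 3.97 times the annotated gene. Ddx60, a helicase that assists RIG-I, was at 33.3 (17.1 to 49.6), 12.2 (5.95 to 18.4) and 37.4 (20.6 to 54.3), higher and apart in the late comparison.

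Among 29 further genes induced by interferon gamma, Upp1, an enzyme of uridine breakdown, was higher and apart at both times, at 50.9, 144 and 223. The merged locus of Serpina3f and Serpina3g was so at day 5 alone, at 25.8 (7.07 to 44.4) against 0.828 (0 to 2.29) at day 0. Irf8, a transcription factor of myeloid cells listed with the signalling genes, was at 0.688, 2.49 and 3.16, and higher and apart in the day 15 comparison. Cxcl10, a chemokine used as a readout of interferon gamma, was at 4.57 (0 to 13.6) at day 5 and 0.306 (0 to 1.48) at day 0, not apart, on a locus 37.0 times the annotated gene. Iigp1, a GTPase of the same class as Igtp, was at 3.24, 7.60 and 9.24, and the merged locus of the type I induced genes Oas1a and Oas1g at 7.91, 2.67 and 6.01, and neither was apart.

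Markers of several other cell types differed between the same groups. The summed FPKM of 16 macrophage and monocyte markers was 767 at day 0, 1318 at day 5 and 1695 at day 15, of which a locus shared by Cd68 and 5 other genes made up 579, 587 and 559 and Lyz2 made up 68.3, 385 and 685. Of these markers 4 were higher and apart in the day 5 comparison and 7 in the day 15 comparison, and Emr1 was at 1.53, 5.08 and 9.07. The sum of 13 neutrophil markers was 39.1, 1697 and 882, with 8 and 6 of 16 loci higher and apart. Of these loci, 11 reached an FPKM of 1. Mpo, Ngp and Camp stayed below 1 in all groups, and Elane was listed at 0 throughout. A single Ltf locus made up 15.7, 1243 and 759.5 of that sum, and the rest summed to 23.5, 454 and 123. The sum of 10 endothelial markers was 31.3, 191 and 134, with 6 higher and apart in each comparison against day 0. By value 9 and 10 of them were higher than at day 0, and Kdr was nearly level at 3.66, 3.47 and 3.88. Erg alone was at 12.04, 118 and 56.3, lower and apart in the late comparison. The rest summed to 19.2, 73.0 and 77.3, so that the lower day 15 sum came from Erg. T cell markers summed to 1.37, 6.68 and 7.30 over 9 genes, and natural killer cell markers to 0.584, 4.09 and 5.17 over 8. Plasmacytoid dendritic cell markers summed to 7.27, 4.75 and 3.44 over 5, and B cell markers to 0.571, 0.459 and 0.543 over 5, with Pax5 listed at 0. No T cell, natural killer, plasmacytoid or B cell marker was apart in any comparison. An FPKM of 1 was reached by 4 T cell markers, 1 natural killer, 1 plasmacytoid and no B cell marker. Gzma made up 0.219, 2.11 and 3.03 of the natural killer sum, with an interval of 0 to 6.19 at day 15. The plasmacytoid sum is nearly all Cox6a2 (6.23, 3.77 and 1.49), whose locus is 34 times the annotated gene, and Siglech, the defining marker, was at 0.276, 0.134 and 0.359. The sum of 10 corneal epithelial markers was 13632, 2171 and 3675, of which Aldh3a1 made up 9149.9, 303 and 866. Of these markers 3 and 1 were lower and apart in the day 5 and day 15 comparisons. By value 1 and 2 of the 9 usable ones were higher than at day 0, with Krt14 at 180, 500 and 760, not apart. Krt12, the defining keratin of corneal epithelium, had no usable value at day 0 and is counted as 0 in that sum. It was at 6.81 and 9.67 at days 5 and 15. The sum of 9 keratocyte markers was 4681, 1836 and 2643, of which Dcn made up 3484, 1388 and 2104. Of these markers 4 and 3 were lower and apart, and Thy1 was higher and apart in both comparisons, at 1.71, 15.3 and 9.76. By value 4 and 3 of the 9 were higher than at day 0, among them Lum (237, 243 and 286) and Ogn (46.5, 77.2 and 74.9). The part of these shifts in the values of Ifitm3, Isg20, Zbp1 or any other member was not tested.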

How the data were processed

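The authors deposited 1 gene table of FPKM values (fragments scaled to transcript length and library size) with 1 value, a lower and an upper bound and a status for each of the 3 groups, per the file headers. It holds 0 columns for single samples, so no replicate spread, standard error or p-value could be computed, and depth is unknown. Alignment and quantification tools are given by the submitters' processing notes as Bowtie2 2.2.6 and TopHat2 2.1.0, with Cufflinks 2.2.1 and Cuffdiff (no version), on mm10. The replicate-based fits planned for per-sample columns were therefore not run.

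A member was found by splitting each locus name at its commas. A locus was called apart where the status was OK in both groups, the higher FPKM reached 1, log2 of the ratio of (FPKM + 1) reached 1 in size, and the deposited intervals did not overlap. The same rule was run on all 28539 loci, and checked on simulated data. Starts in the table were raised by 1 base to count from 1. Gene spans, overlapping exons and shared transcript words of 50 bases come from GENCODE M21 (GRCm38), and promoter windows from RefSeq (GRCm38.p6). The members, the lists and the call rule were chosen with earlier results of these data known, as were the 8 groups by role. All 39 members are named, as are the other pathway genes that were apart in any comparison and others chosen whatever their values, of which 1 is not reported here. Promoter windows were chosen for members that were apart and held a motif, plus 2 members that were not apart. Python 3.11.15, numpy 2.4.6, pandas 2.3.3 and matplotlib 3.10.9 were used.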

Additional observations from a re-analysis of the deposited data

How the results depend on the processing

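Of 72 recomputed counts and medians of the members, 67 stayed the same, meaning a count within 1.5 times its reported value or a median within 0.2 on the log2 scale. Where the reported count was 0, no member's intervals separated in that direction. Settings that keep the deposited intervals had to give 0 again there, so those repeats do not bear on robustness. With a pseudocount of 5, or with an FPKM of 5 or more required in the higher group, 1 member (Ifitm3) was higher and apart in the day 5 comparison in place of 2, because the low levels of Isg20 no longer pass. Isg20, at 2.45 FPKM at day 15, drops out of the day 15 comparison under both settings as well. That count is labelled the same only because it stays within 1.5 times its reported value. With the intervals not used, 1 member was lower in the day 5 comparison, 5 were higher in the day 15 comparison and 1 was higher in the late one, in place of 0, 3 and 0. Of 369 recomputed values of single genes and of added counts, 340 stayed the same and 29 moved, and none that had been called changed sign. The number of members with a higher value, an alternative chosen after seeing the data, was 19, 25 and 29 in the 3 comparisons with the median of expressed loci scaled to 0, beside 17, 24 and 30 as reported.

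No paired analysis was possible because the table gives 1 pooled column per group, and leaving out a replicate could not be run for the same reason. Of the 39 members, 2 lie on merged loci, 7 have exons that overlap a gene on the other strand in data of unstated strandedness, and 5 share over 10% of their 50-base words with another gene.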
